A study of Mus musculus with 40 samples.

Results

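The 35 genes described here encode the enzymes and carriers that bring pyruvate into mitochondria, turn it into acetyl-CoA, oxidize it in the tricarboxylic acid (TCA) cycle, and move malate and aspartate across the mitochondrial membrane. They were chosen by name, with no measured value in the rule but with earlier results of these data known. They are 35 of 47643 genes in the count tables. Of these, 34 had enough counts for testing in each comparison. The remaining gene, *Ogdhl*, had counts in only 2 of 40 libraries.

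Pyruvate enters mitochondria through a carrier made of MPC1 and MPC2 and is decarboxylated by the pyruvate dehydrogenase complex, which kinases switch off by phosphorylating its E1 subunit and a phosphatase switches on again. The TCA cycle then oxidizes acetyl-CoA, feeds respiration, and supplies the carbon skeletons of glutamate and GABA, the main excitatory and inhibitory transmitters of the brain. In neurons the malate-aspartate shuttle carries cytosolic reducing equivalents into mitochondria, and ketone bodies enter the same cycle as acetyl-CoA without passing through pyruvate dehydrogenase.

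The study asked how brain gene expression differed between mice that received the gut microbiota of donors with epilepsy sampled before (pre-KD) or after (post-KD) a ketogenic diet. Wild-type, germ-free, female Swiss Webster mice, 6 to 8 weeks old, received the stool by fecal microbiota transplant (FMT), and hippocampus and frontal cortex were taken on day 4. The recipients in all groups ate a control diet, and no library here came from mice without a transplant. The 10 donors at both times gave 20 recipient cohorts, and each cohort gave 1 library per region from 6 pooled mice, so that 40 libraries fell into hippocampus pre-KD, hippocampus post-KD, frontal cortex pre-KD and frontal cortex post-KD with 10 libraries each. The spread between the mice of a pool cannot be seen.

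Total counts were 1140756 to 1947416 per hippocampal library and 1188447 to 2095352 per frontal cortical library, and the single gene *Gm42418* held 8.63% to 18.02% of them. Summed markers of hippocampal neurons were at 804 to 1304 CPM (counts per 1000000 counts of normalized library size) in the hippocampus and 432 to 782 CPM in the frontal cortex, and those of cortical neurons at 201 to 542 and 309 to 624.7 CPM. Other tissue moved with region as well. Striatal markers (7 genes, of which *Drd2* was at 0 in the hippocampus) summed to 33.5 to 298 CPM in the hippocampus and 497 to 1089 CPM in the frontal cortex, and choroid plexus markers (8 genes) to 500.1 to 4443 and 7.86 to 599 CPM. Between pre-KD and post-KD recipients the summed ranges of all 10 marker lists overlapped in both regions, although all 6 tested striatal markers had a lower estimate post-KD in the hippocampus and 7 of 8 hippocampal neuron markers had one in the frontal cortex. At an unadjusted p under 0.05 with edgeR, the frontal cortex had 2 of 3 tested blood and 2 of 6 striatal markers higher post-KD and 1 of 8 microglial markers each way, where 9.68% of all genes were called. The hippocampus had 1 of 6 striatal and 1 of 8 neuronal markers lower, 1 of 8 oligodendrocyte markers higher and 1 of 8 hippocampal neuron markers each way, where 10.1% of all genes were called. No marker passed adjustment post-KD against pre-KD in either region, and the part of these tissues in the results was not tested. In bulk tissue, fewer cells of a type and less RNA per cell cannot be told apart.

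Per length, 4 enzymes of the malate-aspartate shuttle had the highest levels of the 35 genes in both regions. In CPM per kilobase of annotated exon, cytosolic malate dehydrogenase *Mdh1* averaged 112 ± 26.7 in the hippocampus, against 123 ± 19.3 in the frontal cortex (SD, n = 20 libraries each). Mean levels of the cytosolic aspartate aminotransferase *Got1*, the mitochondrial malate dehydrogenase *Mdh2* and the mitochondrial aminotransferase *Got2* were 71.04, 67.3 and 34.8 CPM per kb in the hippocampus and 67.2, 70.02 and 40.3 in the frontal cortex. *Got1* and *Mdh2* differed by less than their SDs and stood in opposite order in the 2 regions. Next came the subunits of the NAD-dependent isocitrate dehydrogenase and of E1 of pyruvate dehydrogenase, from 20.9 to 32.4 CPM per kb in the hippocampus, whose neighbors in the order differed by less than their SDs. *Suclg2*, *Pdk4* and *Ogdhl* were lowest, each under 1 CPM per kb in both regions. The labels name a library kit that reads whole transcripts, while a resource list of the study names one that reads transcript ends, for which a division by length would not apply.

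**Figure D1:**
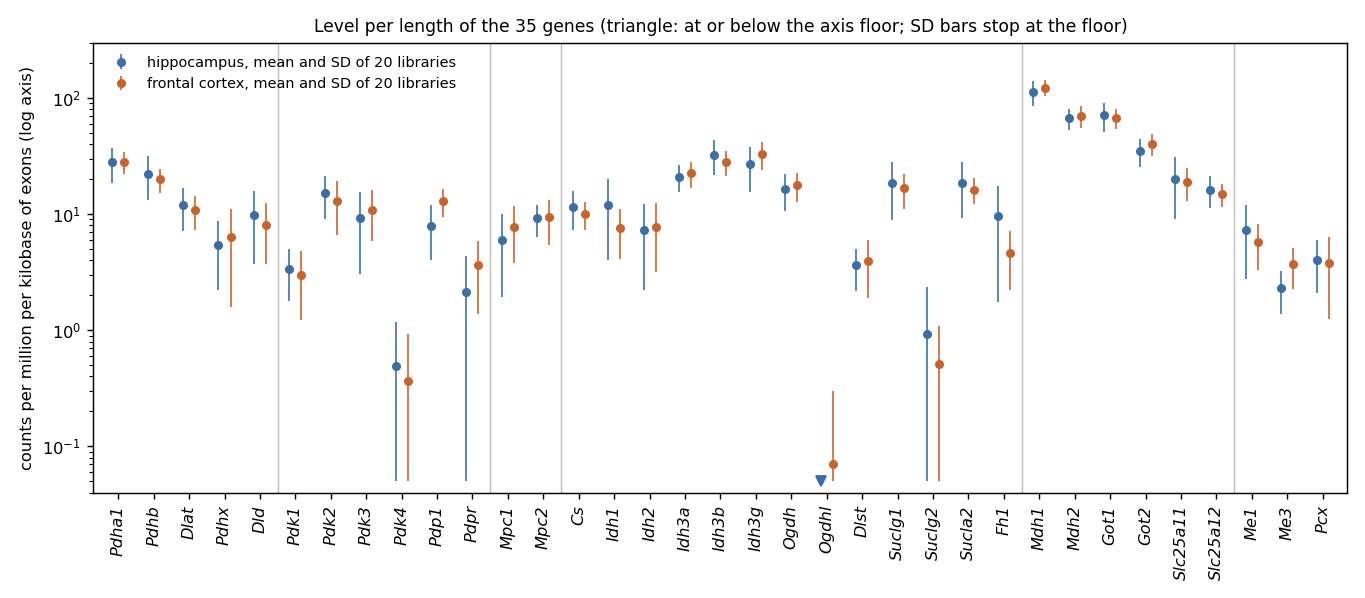
Mean level of each of the 35 genes in CPM per kilobase of exon (log axis) in the hippocampus and frontal cortex, with bars of 1 SD over 20 libraries and genes in order of their functional group. *Mdh1* is highest at 112 and 123 CPM per kb, and *Ogdhl* is lowest, with no count in the hippocampus.

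Single genes varied more between libraries than counting alone would give. The coefficient of variation (CV) over 20 libraries was 20.6% to 154% among tested genes in the hippocampus, 2.22 to 6.02 times the CV of counting error (median 4.06), and 15.7% to 153% in the frontal cortex, 2.27 to 4.89 times the counting error (median 3.35). Over genes averaging at least 20 counts, this ratio had a median of 4.08 for 30 of the 35 genes and 4.07 for all 8016 such genes in the hippocampus, and of 3.35 for 32 of the 35 and 3.36 for all 8255 in the frontal cortex. The spread of the pathway genes was thus close to that of the tables as a whole.

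The summed level of the 35 genes was 2368 ± 152 CPM pre-KD and 2397 ± 247 CPM post-KD in the hippocampus and 2418 ± 120.2 CPM pre-KD and 2403 ± 195 CPM post-KD in the frontal cortex (SD, n = 10). The sums ranged over 2123 to 2659 CPM pre-KD (median 2338) and 2023 to 2919.9 CPM post-KD (median 2396) in the hippocampus and over 2220.3 to 2576 CPM pre-KD (median 2435) and 2058 to 2658 CPM post-KD (median 2415) in the frontal cortex, so the groups overlapped in both regions. If the genes varied independently, their variances would give the sum an SD of 163 CPM pre-KD and 182 CPM post-KD in the hippocampus and of 128 and 140.2 CPM in the frontal cortex. The observed SD was below this value in both pre-KD groups and above it in both post-KD groups, a difference that was not tested.

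No gene of the 34 passed a threshold between post-KD and pre-KD recipients in either region with edgeR's quasi-likelihood test. In the hippocampus, 17 genes had a higher and 17 a lower estimate post-KD, with a median log2 fold change of -0.0011 beside -0.0078 over all genes tested. At an unadjusted p under 0.05, edgeR and DESeq2 each called 0 of the 34, where edgeR called 10.1% and DESeq2 3.42% of all 17529 genes, and at an adjusted p under 0.05 each again called 0, where edgeR called 0.0057% and DESeq2 0% of all genes. The frontal cortex again had 17 genes higher and 17 lower, with a median of 0.00062 beside 0.0085 over all genes. At an unadjusted p under 0.05, edgeR called 0 and DESeq2 1 (*Idh1*), where edgeR called 9.68% and DESeq2 4.62% of all 17873 genes, and at an adjusted p under 0.05 both called 0, where edgeR called 0.0056% and DESeq2 0.0112% of all genes. The pre-KD and post-KD ranges did not separate for any of the 34 genes in either region, nor for any other gene tested (0% of all genes).

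The 95% intervals give the size of change that these libraries could bound. In the hippocampus the interval lay within 1 log2 unit of 0 for 20 of 34 genes and within 0.5 for 4, *Mdh1*, *Mdh2*, *Got1* and *Got2*. For the frontal cortex it lay within 1 log2 unit for 23 and within 0.5 for 9, these 4 genes with *Pdha1*, *Dlat*, *Idh3a*, *Idh3b* and *Slc25a12*. The narrowest interval was 0.61 log2 units wide in the hippocampus, against 0.46 in the frontal cortex, and the widest, that of *Pdk4*, 5.73 and 5.12.

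**Figure D2:**
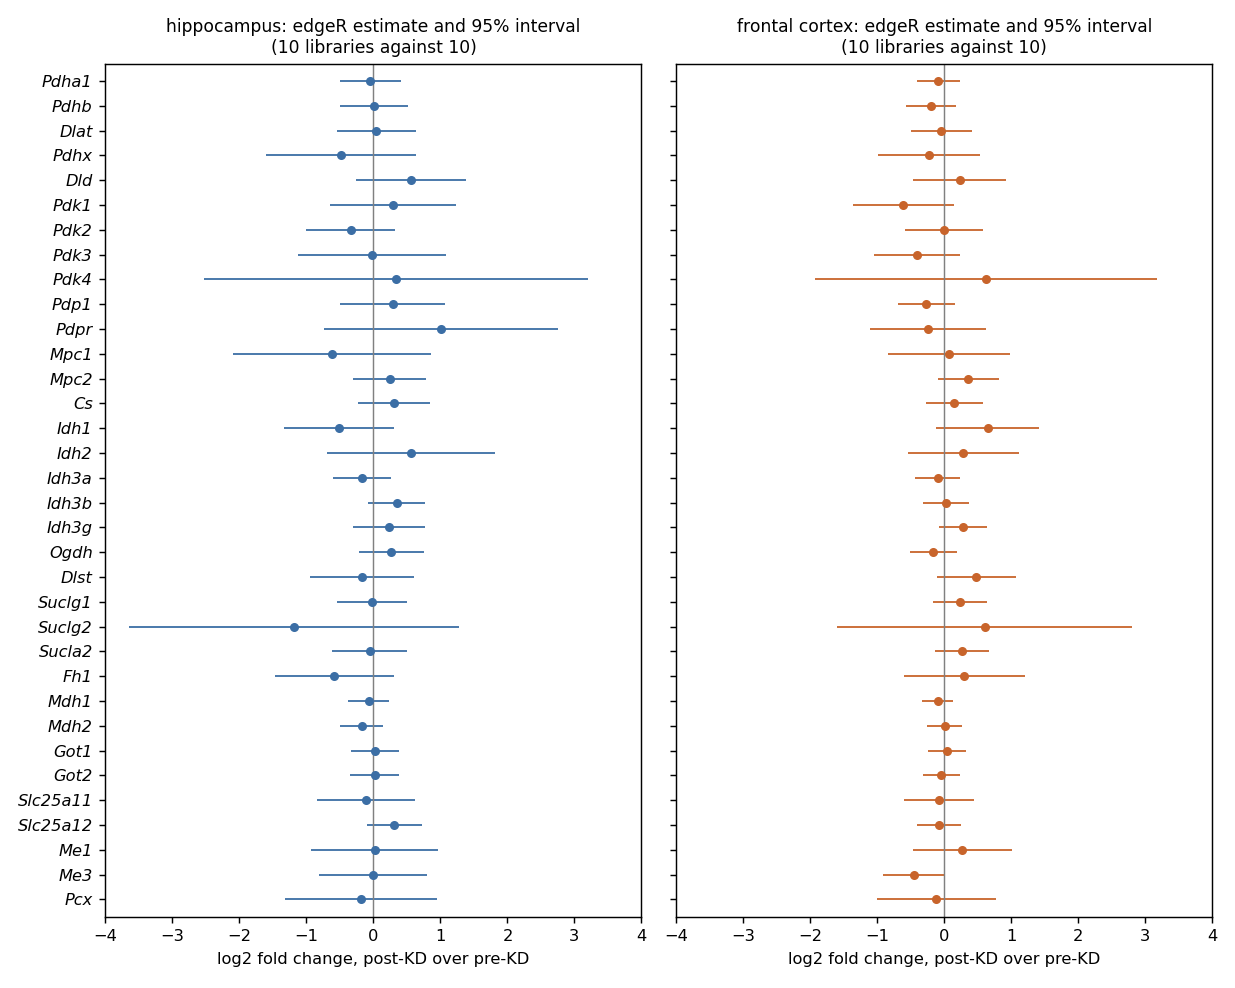
Log2 fold change of post-KD over pre-KD recipients for the 34 tested genes in the hippocampus and frontal cortex, with points for the edgeR estimate and bars for its 95% interval from 10 libraries against 10. Every interval crosses 0, and that of *Pdk4* is the widest.

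The 5 subunit genes of the pyruvate dehydrogenase complex gave no difference past the thresholds. They are *Pdha1* and *Pdhb* (the E1 decarboxylase), *Dlat* (the E2 acetyltransferase), *Pdhx* (the E3-binding protein) and *Dld* (the E3 dehydrogenase, which other 2-oxoacid dehydrogenase complexes share). Their summed level was 304 ± 54.8 CPM pre-KD and 309 ± 80.999 CPM post-KD in the hippocampus and 299 ± 61.4 CPM pre-KD and 281 ± 30.4 CPM post-KD in the frontal cortex. *Pdha1*, which is X-linked, measured 44.6 to 139 CPM pre-KD (median 107) and 37.3 to 173 CPM post-KD (median 108) in the hippocampus. Libraries of the frontal cortex held 77.2 to 146 CPM pre-KD (median 103) and 77.7 to 127 CPM post-KD (median 104). Pre-KD and post-KD medians were nearly equal in both regions. *Pdha1* shares 603 bases of exon with *Map3k15* on the opposite strand, and the strand setting of the counting is not given in the sources used here. Such overlap also covers 569 bases of *Me3*, 480 of *Mpc1*, 434 of *Got2*, 189 of *Slc25a11* and 169 of *Pdpr*. It covers 52 bases of *Mdh1*, 30 of *Me1* and 5 of *Idh3b*.

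*Dld* had the largest estimate among the subunits in the hippocampus. It measured 2.33 to 67.3 CPM pre-KD (median 29.5) and 15.3 to 88.99 CPM post-KD (median 42.3), a log2 fold change of 0.56 ± 0.41 (SE, edgeR unadjusted p = 0.18, adjusted p = 0.90), and was higher post-KD in recipients of 7 of 10 donors. The groups overlapped over most of their range. *Pdhx* averaged 25.1 ± 13.1 CPM pre-KD and 17.9 ± 11.97 CPM post-KD in the hippocampus and took lower values post-KD in the recipients of 9 of the 10 donors, while its means differed by less than either SD. *Pdhb* and *Dlat* averaged 86.2 ± 35.996 CPM pre-KD and 86.5 ± 36.99 CPM post-KD and 57.8 ± 26.8 CPM pre-KD and 59.6 ± 22.4 CPM post-KD there.

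Among the kinases that inactivate the complex, *Pdk2* had the highest median share of the transcript and *Pdk4* the lowest. Of the summed kinase counts per kilobase, *Pdk2* held a median share of 54.7% in the hippocampus (15.6% to 82.95% over 20 libraries), against 51.5% in the frontal cortex (14.8% to 72.8%). The X-linked *Pdk3* held median shares of 31.6% and 36.1%, and *Pdk1*, a target of hypoxia signaling, 11.7% and 11.1%. Without the division by length, the median shares of the counts were 51.0% and 50.4% for *Pdk2*, 23.7% and 26.9% for *Pdk3* and 26.2% and 24.7% for *Pdk1*, so *Pdk3* stood above *Pdk1* in the hippocampus only per length. *Pdk4*, which fasting induces in many tissues, was at 0 counts in 11 of 20 hippocampal and 10 of 20 frontal cortical libraries and did not exceed 7.995 CPM. Single libraries departed far from these medians, among them 2 hippocampal libraries without a *Pdk3* count.

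**Figure D3:**
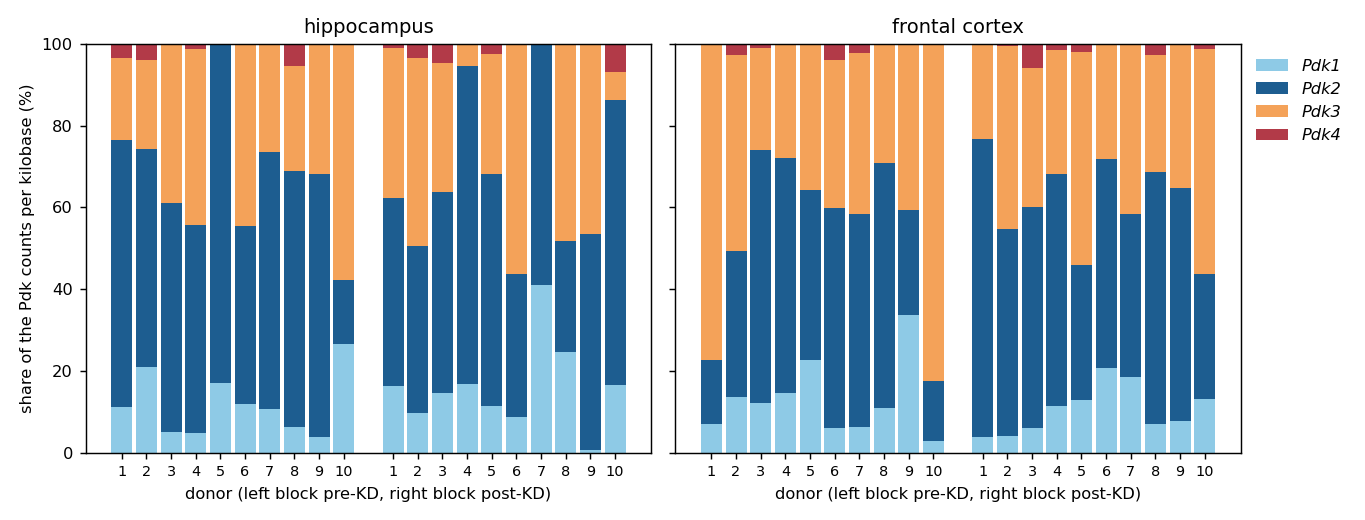
Share of *Pdk1*, *Pdk2*, *Pdk3* and *Pdk4* in the summed *Pdk* counts per kilobase of exon (percent) in every library of the hippocampus and frontal cortex, by condition and donor. *Pdk2* and *Pdk3* fill most bars per length, and *Pdk4* is a thin slice or absent.

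None of the kinase genes differed past a threshold between post-KD and pre-KD recipients. The log2 fold changes in the hippocampus were 0.29 ± 0.48 for *Pdk1*, -0.34 ± 0.33 for *Pdk2*, -0.021 ± 0.55 for *Pdk3* and 0.34 ± 1.45 for *Pdk4* (SE, edgeR adjusted p = 1.0 for each). The frontal cortical values were -0.61 ± 0.38, -0.0034 ± 0.29, -0.41 ± 0.32 and 0.62 ± 1.28, with adjusted p of 0.73 to 1.0. *Pdk1* had the lowest unadjusted p of the 4 (0.11) in the frontal cortex, where it measured 7.27 to 53.2 CPM pre-KD (median 29.4) and 8.40 to 30.7 CPM post-KD (median 18.3). All post-KD values lay inside the pre-KD range. Without donor 10 its log2 fold change was -0.79 (unadjusted p = 0.045, adjusted p = 0.49), and without donor 9 it was -0.39 (unadjusted p = 0.32). For *Pdk4*, intervals of -2.53 to 3.20 and -1.94 to 3.18 leave the direction undetermined.

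*Pdk2*, *Pdk3* and *Pdk4* overlapped between the groups as well. *Pdk2* measured 7.05 to 81.6 CPM pre-KD (median 62.1) and 22.6 to 65.7 CPM post-KD (median 43.3) in the hippocampus and 8.49 to 75.1 CPM pre-KD (median 41.7) and 19.1 to 70.95 CPM post-KD (median 36.8) in the frontal cortex. *Pdk3* measured 0 to 49.3 CPM pre-KD (median 20.8) and 0 to 47.7 CPM post-KD (median 22.9) in the hippocampus and 18.3 to 70.4 CPM pre-KD (median 28.2) and 8.56 to 40.9 CPM post-KD (median 21.1) in the frontal cortex, where it took lower values post-KD in the recipients of 8 of the 10 donors. The highest *Pdk4* values were 5.60 CPM pre-KD and 7.15 CPM post-KD in the hippocampus.

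*Pdp1* encodes the catalytic subunit of the phosphatase that reactivates the complex, and *Pdpr* its regulatory subunit. *Pdp1* measured 5.64 to 66.03 CPM pre-KD (median 32.4) and 14.3 to 76.9 CPM post-KD (median 35.1) in the hippocampus and 45.9 to 80.9 CPM pre-KD (median 66.8) and 34.2 to 94.9 CPM post-KD (median 51.2) in the frontal cortex. In the frontal cortex it took lower values post-KD in the recipients of 8 of the 10 donors (log2 fold change -0.27 ± 0.21, edgeR adjusted p = 0.90). The change post-KD differed between regions by -0.71 ± 0.48 log2 units (unadjusted p = 0.14), which did not pass the threshold, and by -0.45 without donor 5 (unadjusted p = 0.35). *Pdpr* had the highest estimate of the 34 genes in the hippocampus, 1.01 ± 0.88, from 0 to 17.5 CPM pre-KD and 0 to 46.8 CPM post-KD, with a 95% interval of -0.73 to 2.76. It was 0.57 without donor 2 and 1.63 with the donor as a replicate block (adjusted p = 1.0 for both).

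The 2 subunits of the pyruvate carrier differed in depth. *Mpc2* averaged 61.9 ± 24.4 CPM pre-KD and 73.2 ± 16.9 CPM post-KD in the hippocampus and 60.2 ± 19.97 CPM pre-KD and 77.3 ± 34.6 CPM post-KD in the frontal cortex. Its frontal cortical log2 fold change was 0.36 ± 0.23 (edgeR unadjusted p = 0.12, adjusted p = 0.76), with higher values post-KD in the recipients of 7 of the 10 donors and overlapping ranges of 32.8 to 98.9 and 21.3 to 134 CPM. Without donor 3 or donor 10 it was 0.47 (unadjusted p = 0.041, adjusted p = 0.50) and 0.51 (unadjusted p = 0.036, adjusted p = 0.44), and without donor 1 it was 0.19 (unadjusted p = 0.42). *Mpc1* averaged 9.86 to 16.5 CPM in the 4 groups with SDs of 5.50 to 10.3, and 480 bases of its exons overlap a transcript on the opposite strand.

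In the TCA cycle, *Idh3b* had the lowest p in the hippocampus. It encodes a subunit of the NAD-dependent isocitrate dehydrogenase. It measured 60.9 to 154 CPM pre-KD (median 90.03) and 74.2 to 189 CPM post-KD (median 117), a log2 fold change of 0.35 ± 0.21 (edgeR unadjusted p = 0.11, adjusted p = 0.74), with higher values post-KD in the recipients of 7 of the 10 donors. The groups overlapped, and in the frontal cortex the means were 95.6 ± 19.1 and 97.1 ± 28.8 CPM. The catalytic subunit *Idh3a* averaged 112 ± 18.8 CPM pre-KD and 100.1 ± 34.9 CPM post-KD in the hippocampus, and the X-linked *Idh3g* 66.5 ± 21.4 CPM pre-KD and 78.3 ± 37.6 CPM post-KD.

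*Idh1*, the cytosolic NADP-dependent isocitrate dehydrogenase, had estimates of opposite sign in the 2 regions. It measured 12.5 to 108 CPM pre-KD (median 33.1) and 15.6 to 60.2 CPM post-KD (median 22.7) in the hippocampus, a log2 fold change of -0.51 ± 0.41 (edgeR unadjusted p = 0.22, adjusted p = 0.94) that was -0.20 without donor 5. Its frontal cortical range was 3.08 to 25.6 CPM pre-KD (median 18.1) and 14.9 to 41.2 CPM post-KD (median 26.5), a log2 fold change of 0.65 ± 0.39 with higher values post-KD in the recipients of 8 of the 10 donors (unadjusted p = 0.099, adjusted p = 0.71). The ranges overlapped in both regions. The difference between the regional changes was 1.16 ± 0.68 log2 units by edgeR (unadjusted p = 0.087, adjusted p = 1.0). At an unadjusted p under 0.05 this test called 0 of the 34 genes with edgeR, where it called 2.22% of all 19422 genes, and 1 with DESeq2, *Idh1* (unadjusted p = 0.020, adjusted p = 0.83), where DESeq2 called 4.89% of all genes. In the same edgeR test, all 6 tested striatal markers had a higher estimate, 4 of them at an unadjusted p under 0.05 (lowest p = 0.00076), as did 2 of 3 blood, 1 of 6 endothelial and 1 of 8 cortical neuron markers at that p, none after adjustment, and their part in the *Idh1* value was not tested. After adjustment both tools called 0 of the 34, where edgeR called 0.0154% and DESeq2 0% of all genes. DESeq2 gave *Idh1* an unadjusted p of 0.049 within the frontal cortex (adjusted p = 1.0).

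*Idh2*, the mitochondrial NADP-dependent form, was higher post-KD in the hippocampus in the recipients of 9 of the 10 donors. It measured 0 to 36.6 CPM pre-KD (median 12.8) and 6.97 to 40.98 CPM post-KD (median 21.8), with 2 pre-KD libraries at 0 counts, and a log2 fold change of 0.56 ± 0.63 (edgeR unadjusted p = 0.37, adjusted p = 1.0). With the donor as a replicate block it was 1.49 (unadjusted p = 0.060, adjusted p = 1.0). Frontal cortical values were 3.35 to 39.8 CPM pre-KD (median 16.7) and 7.004 to 46.8 CPM post-KD (median 20.1), a log2 fold change of 0.28 ± 0.42 with 7 of 10 donors higher. Neither difference passed a threshold. Per length, *Idh2* held a median of 42.6% of the *Idh1* and *Idh2* counts in the hippocampus (0% to 68.2%), against 51.8% in the frontal cortex (14.8% to 91.8%), so neither form was the main one in every library.

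**Figure D4:**
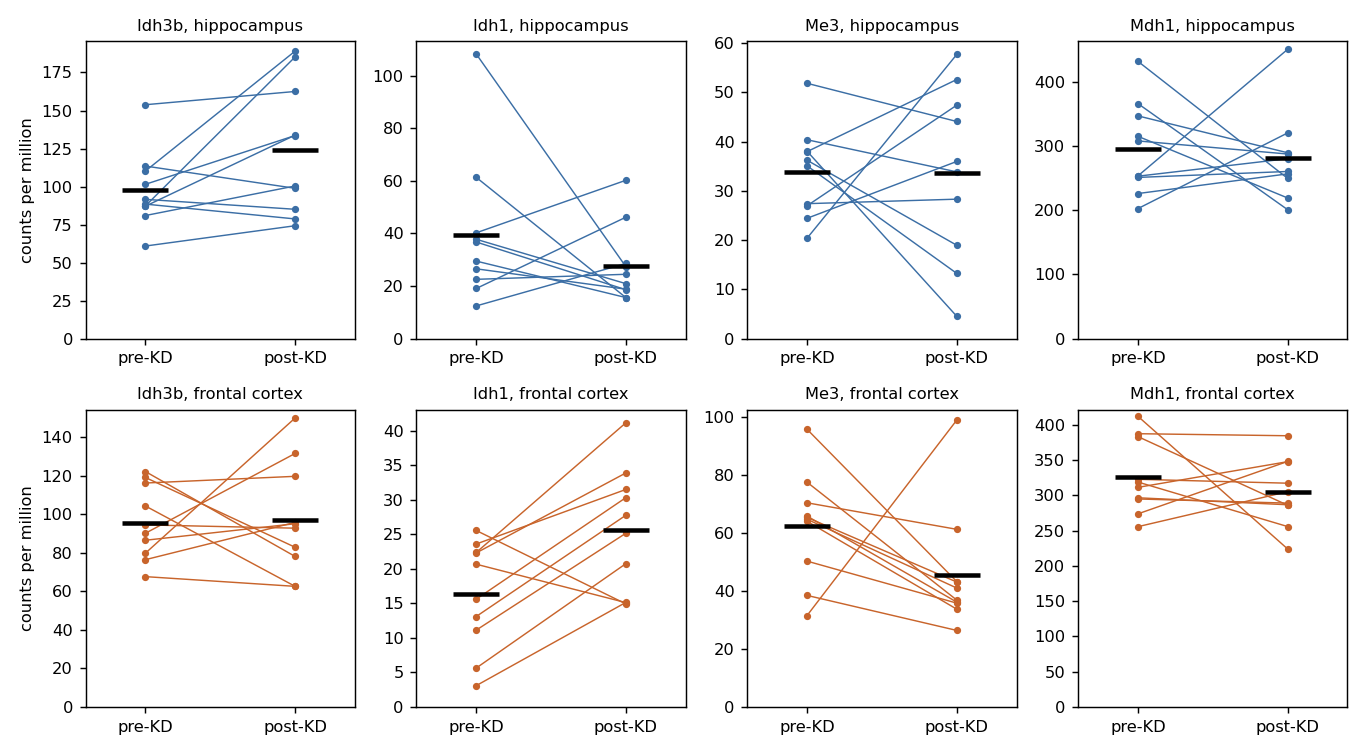
CPM of *Idh3b*, *Idh1*, *Me3* and *Mdh1* in recipients of pre-KD and post-KD stool in the hippocampus and frontal cortex, with 1 line per donor and the mean of 10 libraries marked. In the frontal cortex *Idh1* is higher post-KD on 8 of 10 lines and *Me3* lower on 9 of 10, and the 2 sets of points overlap in every panel.

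*Cs*, citrate synthase, which condenses acetyl-CoA with oxaloacetate, averaged 60.1 ± 12.5 CPM pre-KD and 74.4 ± 31.9 CPM post-KD in the hippocampus (log2 fold change 0.31 ± 0.27, and 0.087 without donor 8, edgeR adjusted p = 0.98 and 1.0) and 54.9 ± 14.5 CPM pre-KD and 60.9 ± 16.9 CPM post-KD in the frontal cortex. *Ogdh*, the E1 subunit of 2-oxoglutarate dehydrogenase, measured 35.1 to 109.96 CPM pre-KD (median 82.2) and 45.99 to 185 CPM post-KD (median 95.3) in the hippocampus, a log2 fold change of 0.27 ± 0.24 (edgeR adjusted p = 0.99) that was 0.062 without donor 6. Libraries of the frontal cortex held 72.5 to 149 CPM pre-KD (median 95.5) and 50.1 to 156 CPM post-KD (median 92.96), a log2 fold change of -0.16 ± 0.18 (adjusted p = 0.97). Neither difference passed a threshold. Its paralog *Ogdhl* was at 0 in all 20 hippocampal libraries and in 18 of 20 frontal cortical libraries, with 9 counts in all from 2 pre-KD libraries. *Dlst*, the E2 subunit, averaged 31.5 ± 12.6 CPM pre-KD and 44.1 ± 23.6 CPM post-KD in the frontal cortex, with higher values post-KD in the recipients of 8 of the 10 donors (log2 fold change 0.48 ± 0.30, unadjusted p = 0.11, adjusted p = 0.74). Without donor 10 it was 0.66 (unadjusted p = 0.039, adjusted p = 0.46), and without donor 9 it was 0.30 (unadjusted p = 0.33).

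Succinyl-CoA synthetase transcripts were almost all of the ADP-forming version. Of the counts per kilobase of the 2 beta subunits, *Sucla2* (ADP-forming) held a median of 98.2% in the hippocampus (69.6% to 100%), against 97.9% in the frontal cortex (90.4% to 100%), and *Suclg2* (GDP-forming) the remainder. *Sucla2* measured 28.2 to 152 CPM pre-KD (median 57.2) and 33.5 to 151 CPM post-KD (median 63.1) in the hippocampus (log2 fold change -0.058 ± 0.28). Its frontal cortical range was 41.1 to 70.4 CPM pre-KD (median 58.9) and 48.1 to 112 CPM post-KD (median 69.7) (0.27 ± 0.20, edgeR unadjusted p = 0.19). The groups overlapped in both regions. *Suclg2* was at 0 counts in 9 hippocampal and 5 frontal cortical libraries and did not exceed 26.1 CPM, and its log2 fold changes of -1.18 ± 1.25 and 0.60 ± 1.102 have intervals of -3.65 to 1.28 and -1.59 to 2.80. *Suclg1*, the alpha subunit of both versions, averaged 70.8 to 86.1 CPM in the 4 groups.

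*Fh1*, fumarate hydratase, measured 6.41 to 118 CPM pre-KD (median 28.8) and 2.35 to 56.9 CPM post-KD (median 22.4) in the hippocampus, a log2 fold change of -0.58 ± 0.45 (edgeR unadjusted p = 0.19, adjusted p = 0.92), with 5 donors higher and 5 lower, and -0.12 without donor 5. In the frontal cortex it ranged over 6.56 to 25.5 and 3.73 to 38.9 CPM. A sum was taken over 13 genes grouped with the cycle. It included the cytosolic *Idh1* and left out the cycle enzyme *Mdh2*, which was grouped with the shuttle. The summed level was 716 ± 50.7 CPM pre-KD and 743 ± 145 CPM post-KD in the hippocampus. In the frontal cortex it was 664 ± 56.8 CPM pre-KD and 723 ± 89.9 CPM post-KD, and the ranges overlapped in both regions.

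The malate-aspartate shuttle enzymes had the narrowest intervals of the 34 genes. *Mdh1* measured 202 to 431 CPM pre-KD (median 280.4) and 201 to 449.96 CPM post-KD (median 270.02) in the hippocampus, a log2 fold change of -0.070 ± 0.16, and 255 to 412 CPM pre-KD (median 315) and 224 to 384 CPM post-KD (median 297) in the frontal cortex, -0.10 ± 0.11. Its 95% intervals were -0.38 to 0.24 and -0.33 to 0.13. *Mdh2* measured 207 to 317 CPM pre-KD (median 241) and 141 to 317 CPM post-KD (median 234) in the hippocampus, -0.17 ± 0.16, and 156 to 297 CPM pre-KD (median 271) and 181 to 356 CPM post-KD (median 226) in the frontal cortex, 0.0047 ± 0.13. The edgeR adjusted p was at least 0.97 in these 4 tests. Per length, *Mdh1* held a median of 60.4% of the 2 malate dehydrogenases in the hippocampus (51.5% to 74.3%), against 65.9% in the frontal cortex (50.2% to 73.5%). Of the counts without division by length, it held medians of 52.3% (43.3% to 67.6%) and 58.2% (42.1% to 66.7%), over 50% in 14 of 20 libraries of each region.

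The aspartate aminotransferases also overlapped throughout. *Got1* measured 123 to 275 CPM pre-KD (median 158) and 125 to 259.2 CPM post-KD (median 178) in the hippocampus, a log2 fold change of 0.022 ± 0.18, and 123 to 225 CPM pre-KD (median 158) and 128 to 223 CPM post-KD (median 179) in the frontal cortex, 0.042 ± 0.14. *Got2* measured 109 to 212 CPM pre-KD (median 177) and 87.7 to 274 CPM post-KD (median 169) in the hippocampus, 0.018 ± 0.19, and 110.3 to 256 CPM pre-KD (median 191) and 115 to 236 CPM post-KD (median 202) in the frontal cortex, -0.041 ± 0.14. All 4 estimates were smaller than their SE (edgeR adjusted p = 1.0). Per length, *Got1* held a median of 66.3% of the 2 aminotransferases in the hippocampus, against 60.9% in the frontal cortex. Of the counts without division by length, it held medians of 50.9% and 45.0%, over 50% in 11 of 20 hippocampal and 6 of 20 frontal cortical libraries, so in the frontal cortex which form led depended on the division.

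*Slc25a12*, the aspartate-glutamate carrier of neurons, measured 69.4 to 152 CPM pre-KD (median 102) and 88.6 to 223 CPM post-KD (median 126) in the hippocampus, a log2 fold change of 0.31 ± 0.21 (edgeR unadjusted p = 0.14, adjusted p = 0.82), with 6 of 10 donors higher, and 0.15 without donor 6. Its frontal cortical means were 112 ± 19.5 and 106 ± 29.5 CPM. *Slc25a11*, the 2-oxoglutarate-malate carrier, averaged 38.996 to 44.6 CPM in the 4 groups with SDs of 9.87 to 30.02.

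Of the malic enzymes, which link malate to pyruvate, *Me3* had the lowest p of the 34 genes in the frontal cortex. This mitochondrial NADP-dependent form measured 31.5 to 95.8 CPM pre-KD (median 65.1) and 26.4 to 98.98 CPM post-KD (median 38.96). Post-KD values were the lower ones in the recipients of 9 of the 10 donors, and the log2 fold change was -0.45 ± 0.23 (95% interval -0.91 to 0.012, edgeR unadjusted p = 0.056, adjusted p = 0.54). The exception, donor 8, had both the lowest pre-KD and the highest post-KD value, and without it the log2 fold change was -0.73 (unadjusted p = 0.0027, adjusted p = 0.17). With the donor as a replicate block it was -0.51 (unadjusted p = 0.042, adjusted p = 1.0), and *Me3* was then the 1 gene of the 34 at an unadjusted p under 0.05.

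In the hippocampus *Me3* measured 20.4 to 51.8 CPM pre-KD (median 35.7) and 4.55 to 57.7 CPM post-KD (median 34.9), a log2 fold change of -0.0082 ± 0.41 (edgeR adjusted p = 1.0). The change post-KD was not shown to differ between regions (unadjusted p = 0.52). *Me1*, the cytosolic form, measured 0 to 62.03 CPM pre-KD (median 23.9) and 9.20 to 70.4 CPM post-KD (median 23.9) in the hippocampus, 0.018 ± 0.48, and 8.49 to 32.9 CPM pre-KD (median 19.2) and 4.67 to 47.6 CPM post-KD (median 25.4) in the frontal cortex, 0.27 ± 0.37. Per length, *Me3* held a median of 24.1% of the *Me1* and *Me3* counts in the hippocampus, against 39.8% in the frontal cortex. Without division by length its medians were 54.4% and 71.5%, so the leading form reversed, while the share was higher in the frontal cortex on both scales. *Pcx*, pyruvate carboxylase, which refills oxaloacetate mainly in astrocytes, averaged 17.5 to 20.5 CPM in the 4 groups with SDs of 6.49 to 16.3.

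Between the regions, compared within each of the 20 cohorts, 1 of 34 genes passed adjustment with edgeR, where 2.85% of all 19422 genes did. That gene was *Pdp1*. At an unadjusted p under 0.05 edgeR called 6 of the 34 beside 10.9% of all genes, and DESeq2 6 beside 13.7%. Of the 6 with edgeR, 5 were higher in the frontal cortex, beside 8.12% of all genes, and 1 was lower, beside 2.78%. Of the 34, 16 had a higher estimate in the frontal cortex, against 62.7% of all genes, and their median log2 fold change was -0.014 beside 0.17 over all genes. DESeq2 called 3 of the 34 after adjustment, *Pdp1*, *Me3* and *Pdpr*, beside 5.32% of all genes.

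*Pdp1* measured 5.57 to 76.4 CPM in the hippocampus (median 34.7) and 34.5 to 95.6 CPM in the frontal cortex (median 56.7), on a scale set over all 40 libraries. It was higher in the frontal cortex in 16 of 20 cohorts, 9 of 10 pre-KD and 7 of 10 post-KD. The log2 fold change was 0.86 ± 0.24 (SE, 95% interval 0.39 to 1.32, edgeR adjusted p = 0.016). Without donor 4, 8 or 10 it was 0.75, 0.74 and 0.76, with adjusted p of 0.11, 0.098 and 0.072, and without each of the other donors the adjusted p stayed under 0.05. Between the same libraries, 6 of 6 tested striatal and 4 of 8 general neuron markers passed adjustment, all higher in the frontal cortex. So did 5 of 8 choroid plexus and 5 of 8 hippocampal neuron markers, all lower there. Of the cortical neuron markers 4 of 8 passed, 3 higher and 1 lower. The part of these markers in the *Pdp1* result was not tested.

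*Me3* and *Pdpr* had the same sign as *Pdp1*. *Me3* measured 4.51 to 57.5 CPM in the hippocampus (median 35.2) and 26.6 to 100.05 CPM in the frontal cortex (median 47.1), a log2 fold change of 0.75 ± 0.25 with higher values in the frontal cortex in 16 of 20 cohorts (edgeR unadjusted p = 0.0025, adjusted p = 0.077). DESeq2 gave 0.71 (adjusted p = 0.0084). A transcript on the opposite strand shares 569 bases of its exons. *Pdpr* measured 0 to 46.2 CPM in the hippocampus (median 9.80) and 3.52 to 46.1 CPM in the frontal cortex (median 14.7), with 5 hippocampal libraries at 0 counts, a log2 fold change of 1.38 ± 0.56 (unadjusted p = 0.014, adjusted p = 0.24) and 15 of 20 cohorts higher. With no replicate block for the cohort it was 0.85 (unadjusted p = 0.076). The ranges of the regions overlapped for both genes.

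**Figure D5:**
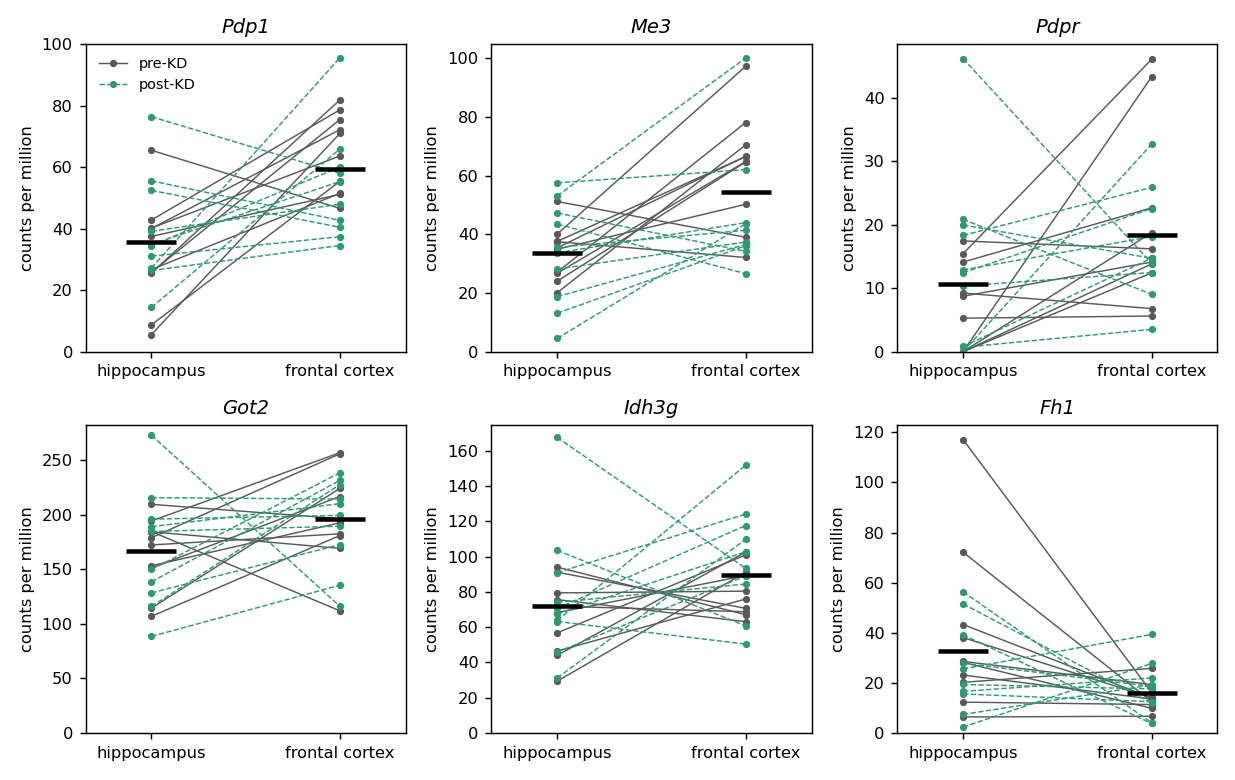
CPM of *Pdp1*, *Me3*, *Pdpr*, *Got2*, *Idh3g* and *Fh1* in the hippocampus and frontal cortex of each cohort, on a scale set over all 40 libraries, with 1 line per cohort and the mean of 20 libraries marked. *Pdp1* and *Me3* are each higher in the frontal cortex on 16 of 20 lines, *Fh1* is lower on 14 of 20, and the ranges of the regions overlap in every panel.

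The other 3 genes with an unadjusted p under 0.05 did not pass adjustment. *Got2* measured 88.5 to 273 CPM in the hippocampus (median 176) and 112 to 257 CPM in the frontal cortex (median 198), a log2 fold change of 0.26 ± 0.12 (edgeR unadjusted p = 0.029, adjusted p = 0.36) with 15 of 20 cohorts higher. *Idh3g* measured 29.4 to 168 CPM in the hippocampus (median 69.4) and 50.3 to 152 CPM in the frontal cortex (median 89.1), 0.38 ± 0.18 (unadjusted p = 0.032, adjusted p = 0.38) with 13 of 20 cohorts higher. *Fh1* had the opposite sign, at 2.32 to 117 CPM in the hippocampus (median 26.7) and 3.77 to 39.3 CPM in the frontal cortex (median 14.03), -0.80 ± 0.38 (unadjusted p = 0.038, adjusted p = 0.41) with 14 of 20 cohorts lower. The remaining 28 tested genes had unadjusted p of 0.069 or higher, among them *Mdh1* (0.17 ± 0.10, higher in 16 of 20 cohorts) and *Idh1* (-0.58 ± 0.34, lower in 14 of 20).

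A further 28 genes of the pathway were read in the same fits, among them succinate dehydrogenase, lactate dehydrogenase and the glycerol-3-phosphate shuttle. Post-KD against pre-KD, 0 of the 28 passed adjustment with edgeR or DESeq2 in either region. At an unadjusted p under 0.05, edgeR called 1 and DESeq2 1 in the hippocampus, and edgeR 3, all higher post-KD, and DESeq2 4 in the frontal cortex. Over all genes these shares were 10.1% and 3.42% in the hippocampus, against 9.68% and 4.62% in the frontal cortex. In the hippocampus 17 of the 28 had a higher and 11 a lower estimate post-KD (median log2 fold change 0.060 beside -0.0078 over all genes), and in the frontal cortex 21 had a higher and 7 a lower one (median 0.25 beside 0.0085, with 50.8% of all genes higher). The hippocampal gene was *Lias*, which makes the lipoyl cofactor of the E2 subunits, at 16.9 to 107 CPM pre-KD (median 43.9) and 17.6 to 123 CPM post-KD (median 68.1), a log2 fold change of 0.63 ± 0.31 (edgeR unadjusted p = 0.046, adjusted p = 0.48) with 8 of 10 donors higher.

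Values follow for 2 of the 3 genes that edgeR called in the frontal cortex, a lactate dehydrogenase and an enzyme of cytosolic acetyl-CoA supply. *Ldhb*, a lactate dehydrogenase subunit, measured 147 to 248 CPM pre-KD (median 215) and 213 to 331 CPM post-KD (median 251), a log2 fold change of 0.29 ± 0.12 (edgeR unadjusted p = 0.019, adjusted p = 0.29) with 9 of 10 donors higher. *Acly*, which makes cytosolic acetyl-CoA from citrate, measured 40.1 to 83.3 CPM pre-KD (median 56.4) and 42.6 to 114 CPM post-KD (median 77.2), 0.41 ± 0.20 (unadjusted p = 0.047, adjusted p = 0.50) with 7 of 10 higher. The pre-KD and post-KD ranges of both genes overlapped, and the change was not shown to differ between regions for *Ldhb* or *Acly* (unadjusted p = 0.50 and 0.38). That test called 1 of the 28 at an unadjusted p under 0.05 with edgeR and 2 with DESeq2, beside 2.22% and 4.89% of all genes, the former being *Pdp2*, another phosphatase of the complex (3.41 ± 1.48, unadjusted p = 0.021, adjusted p = 1.0). *Pdp2* was at 0 counts in 1 pre-KD and 3 post-KD hippocampal libraries and in 3 and 0 frontal cortical ones.

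Between regions, 2 of the 28 genes passed adjustment with edgeR and 4 with DESeq2, beside 2.85% and 5.32% of all genes. *Gpd2*, the mitochondrial enzyme of the glycerol-3-phosphate shuttle, measured 173 to 446 CPM in the hippocampus (median 279) and 110.01 to 279 CPM in the frontal cortex (median 201), lower in the frontal cortex in 19 of 20 cohorts, with a log2 fold change of -0.58 ± 0.10 (edgeR adjusted p = 3.31e-06). *Ldhb* measured 96.6 to 251 CPM in the hippocampus (median 169) and 150.1 to 334 CPM in the frontal cortex (median 233), higher in the frontal cortex in 18 of 20 cohorts, with 0.45 ± 0.11 (adjusted p = 0.0029). The ranges of the regions overlapped for both genes.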

How the data were processed

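Per the study's methods and the labels, the authors trimmed paired reads of 69 bases, aligned them to mm10 with STAR 2.5.2a and counted them per gene with HTSeq 0.6.0. The deposited values are raw read counts, all whole numbers, in 1 table per region with 47643 genes. The annotation release and the strand setting are not given in the sources used here. All 40 columns were used, and 47224 genes were matched to GENCODE M21, whose merged exons gave gene lengths. No pair of libraries was identical.

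Genes with at least 10 counts summed over a fit were tested with the edgeR 4.0.16 quasi-likelihood test (R 4.3.3, TMM normalization), with Benjamini-Hochberg adjustment over all genes of the fit. Post-KD was compared with pre-KD in each region without covariates, and regions, and the difference between regions in the post-KD change, over 40 libraries with a term per cohort. The SE was the log2 fold change divided by the square root of the quasi-likelihood F, and 95% intervals used the degrees of freedom of that test. CPM were TMM-normalized within a region unless stated. The alternatives were DESeq2 1.42.0, limma 3.58.1 (voom with quality weights), no filter, filterByExpr, RLE size factors, library sizes without *Gm42418*, the donor as a block, donors 1 to 5 against 6 to 10 as a covariate (a split taken from earlier results of these libraries), no cohort term, and leaving out each donor. The scripts were tested on simulated data.

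The pairing comes from the design, since replicate numbers name the donor and both regions of a cohort come from the same mice. Deviations from group means (log2 of CPM + 1, genes averaging at least 20 counts) correlated at -0.045 to 0.032 between libraries of the same donor before and after the diet and at -0.025 to 0.20 between the regions of a cohort.

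By rule, values were given for genes past a threshold post-KD against pre-KD or in the difference between regions, for genes past adjustment between regions with a log2 fold change of at least 0.3 (0.5 for the 28 further genes), and for isoforms of 1 step. Other genes were named after their values were seen. As an exception to this rule, values of 1 of the 28 further genes, called at an unadjusted p under 0.05 in the frontal cortex, are not reported here. The 35 genes, the lists and the rules were chosen with earlier results of these data known. P-values measure the spread between pooled libraries only.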

Additional observations from a re-analysis of the deposited data

Results flagged for a closer look

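Within each group of 10 libraries, the highest or lowest value of a gene was set against the rest by Dixon's criterion, and 19 of 137 gene and group combinations stood apart, each on the high side. The criterion flags about 1 in 20 groups by chance only when values are normally distributed, which was not tested for these CPM. The share flagged therefore has no baseline here. Pathway genes of 1 library are also not independent. The values are given without an explanation, and their causes were not tested.

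In the hippocampus, 9 values stood apart. *Pdpr* was at 46.8 CPM in donor 2 post-KD, with 0 to 21.2 CPM in the other libraries of the group. *Cs* was at 151 CPM in donor 8 post-KD, with 37.3 to 94.8 CPM in the other libraries of the group. *Idh1* was at 108 CPM in donor 5 pre-KD, with 12.5 to 61.3 CPM in the other libraries of the group. *Ogdh* was at 185 CPM in donor 6 post-KD, with 45.99 to 117 CPM in the other libraries of the group. *Dlst* was at 73.7 CPM in donor 9 pre-KD, with 20.5 to 47.8 CPM in the other libraries of the group. *Suclg1* was at 220.5 CPM in donor 4 post-KD, with 28.6 to 101 CPM in the other libraries of the group. *Suclg2* was at 26.1 CPM in donor 10 pre-KD, with 0 to 13.8 CPM in the other libraries of the group. *Sucla2* was at 151 CPM in donor 4 post-KD, with 33.5 to 89.5 CPM in the other libraries of the group. *Mdh1* was at 449.96 CPM in donor 6 post-KD, with 201 to 319.97 CPM in the other libraries of the group.

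In the frontal cortex, 10 values stood apart. *Pdhx* was at 89.4 CPM in donor 10 pre-KD, with 5.40 to 39.1 CPM in the other libraries of the group. *Pdk3* was at 70.4 CPM in donor 10 pre-KD, with 18.3 to 36.6 CPM in the other libraries of the group. *Pdk4* was at 7.995 CPM in donor 3 post-KD, with 0 to 2.29 CPM in the other libraries of the group. *Pdp1* was at 94.9 CPM in donor 4 post-KD, with 34.2 to 65.2 CPM in the other libraries of the group. *Ogdh* was at 156 CPM in donor 2 post-KD, with 50.1 to 106 CPM in the other libraries of the group. *Ogdhl* was at 3.94 CPM in donor 9 pre-KD, with 0 to 1.86 CPM in the other libraries of the group. *Suclg2* was at 9.35 CPM in donor 9 post-KD, with 0 to 4.49 CPM in the other libraries of the group. *Me3* was at 98.98 CPM in donor 8 post-KD, with 26.4 to 61.3 CPM in the other libraries of the group. *Pcx* was at 58.6 CPM in donor 6 pre-KD, with 0.772 to 30.4 CPM in the other libraries of the group. *Slc25a12* was at 158 CPM in donor 6 pre-KD, with 90.9 to 126 CPM in the other libraries of the group.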

How the results depend on the processing

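Post-KD against pre-KD, the number of the 34 genes past adjustment was 0 in both regions under every alternative run, and the number at an unadjusted p under 0.05 in the hippocampus was 0 as well, beside 1.99% (replicate block) to 14% (no filter) of all genes. Without a filter on low counts, 1291 of 20964 hippocampal genes passed adjustment (6.16%), against 1 as reported. In the frontal cortex the count at an unadjusted p under 0.05 was 1 with DESeq2 (*Idh1*, beside 4.62% of all genes). It was 2 with limma-voom (*Idh1* and *Me3*, beside 5.99%) and 1 without a filter on low counts (*Ogdhl*, tested only there, beside 14% of all genes). When 1 donor was left out it was 0 to 3, beside 8.95% to 9.75% of all genes. The genes were *Mpc2* without donor 3, *Me3* without donor 8, and *Pdk1*, *Mpc2* and *Dlst* without donor 10. With the donor as a replicate block the count was 1 (*Me3*, beside 3.07%), and the donor pairing changed no call after adjustment. Between regions the count past adjustment was 3 with DESeq2 (beside 5.32% of all genes), 3 with no replicate block for the cohort (*Pdp1*, *Me3* and *Fh1*, beside 9.96%) and 0 to 1 when 1 donor was left out, beside 2.34% to 2.90% (0 without donor 8 or 10, and *Me3* in place of *Pdp1* without donor 4). For the difference between regions in the post-KD change, the count at an unadjusted p under 0.05 was 1 with DESeq2 (beside 4.89%) and 1 with no replicate block (beside 9.10%), *Idh1* in both, and 0 without each donor in turn.

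Over all 34 genes, 14 hippocampal and 14 frontal cortical estimates changed sign under at least 1 alternative or left-out donor, none with a p under a threshold. The hippocampal estimate of *Cs* went from 0.31 to 0.087 without donor 8 and is not in the counts that follow. Among the other log2 fold changes given in the report and here, 19 of 20 hippocampal and 16 of 18 frontal cortical ones moved. A move was a change of sign or of over 1.5 times under at least 1 alternative or left-out donor. Without a change of sign, and beside those in the report, the range over these was 0.036 to 0.42 for *Pdk1* (reported 0.29), -0.56 to -0.21 for *Pdk2* (reported -0.34), -1.60 to -0.41 for *Suclg2* (reported -1.18), -0.26 to -0.089 for *Mdh2* (reported -0.17) and 0.22 to 0.41 for *Idh3b* (reported 0.35) in the hippocampus, and -0.55 to -0.27 for *Pdk3* (reported -0.41), -0.33 to -0.094 for *Ogdh* (reported -0.16), 0.15 to 0.59 for *Idh2* (reported 0.28), 0.42 to 1.05 for *Suclg2* (reported 0.60), 0.17 to 0.34 for *Sucla2* (reported 0.27), -0.15 to -0.013 for *Mdh1* (reported -0.10) and 0.017 to 0.38 for *Me1* (reported 0.27) in the frontal cortex. Those that changed sign follow. In the hippocampus, *Pdk3* was at 0.013 with DESeq2, 0.0034 with filterByExpr and 0.012 with RLE size factors (reported -0.021), *Sucla2* was at 0.015 with limma-voom and 0.025 with the replicate block (reported -0.058), *Mdh1* was at 0.0063 with limma-voom (reported -0.070), *Got2* was at -0.051 with limma-voom and -0.016 with the replicate block (reported 0.018), *Me1* was at -0.038 with limma-voom, -0.042 with the replicate block and -0.0053 with the donor group covariate (reported 0.018) and *Me3* was at 0.0077 with DESeq2, 0.010 with filterByExpr and 0.0073 with RLE size factors (reported -0.0082). Leaving out 1 donor there gave -0.19 to 0.30 for *Pdk3*, -0.29 to 0.96 for *Pdk4*, -0.17 to 0.10 for *Sucla2*, -0.18 to 0.024 for *Mdh1*, -0.075 to 0.16 for *Got1*, -0.092 to 0.14 for *Got2*, -0.24 to 0.24 for *Me1* and -0.19 to 0.15 for *Me3*. In the frontal cortex, *Pdk2* was at 0.0067 with DESeq2, 0.0073 with RLE size factors and 0.067 with the replicate block (reported -0.0034), *Mdh2* was at -0.034 with limma-voom and -0.0042 with the replicate block (reported 0.0047) and *Got2* was at 0.010 with limma-voom (reported -0.041). Leaving out 1 donor there gave -0.25 to 0.11 for *Pdk2*, -0.19 to 1.23 for *Pdk4*, -0.055 to 0.057 for *Mdh2*, -0.018 to 0.13 for *Got1* and -0.11 to 0.036 for *Got2*. Of the genes that changed sign, hippocampal *Pdk3* was also at -0.66 with limma-voom and -0.23 with the replicate block, hippocampal *Me3* at -0.29 and -0.18, and frontal cortical *Pdk4* at 0.28 and 1.20.

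The direction of these estimates is therefore not determined by the data. *Pdk4*, *Suclg2*, *Ogdhl* and *Pdpr* were each at 0 counts in 5 or more libraries, *Pdk3*, *Idh2*, *Pdhx* and *Me1* were at 0 in 1 or 2 hippocampal libraries, and pools of 6 mice hide the spread between animals.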
